A study of Mus musculus with 13 samples.

Results

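The 41 genes described here encode the proteins that copy DNA in S phase, the part of the cell cycle in which the genome is duplicated. They were taken by name and not filtered by their values, from a list chosen with earlier results of these data known. All 41 were found among the 40787 genes of the count table. By role, 10 license replication origins, 6 activate the replicative helicase, 12 form the sliding clamp, its loader, the polymerases and the enzymes that finish the lagging strand, 5 supply deoxynucleotides, 3 act on chromatin behind the fork, and 5 are E2F factors or E-type cyclins.

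RNA was sequenced from 13 sciatic nerves of C57BL/6 mice at 5 days post crush (dpc). Control mice carried 2 floxed Rptor alleles and no Cre (Rptor flox/flox), and RaptorKO mice carried the same alleles with a tamoxifen-inducible Cre directed to Schwann cells (SCs). Raptor is a subunit of the growth-promoting kinase complex mTORC1. Tamoxifen was given to all mice, controls included, when they were 2 months old, and surgery followed 2 months later. The crushed nerve (injured) and the uncrushed nerve of the other side (contralateral) were collected, which gave 3 control injured, 3 RaptorKO injured, 3 control contralateral, and 4 RaptorKO contralateral libraries. RNA came from the whole nerve without its epineurium, so the libraries also hold transcripts of macrophages, fibroblasts, vessels and other cells with intact Rptor. A lower level in such bulk RNA can come from fewer cells of a type or from less RNA per cell, and these cannot be told apart.

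Origins are licensed when ORC, Cdc6 and Cdt1 load the MCM2-7 ring onto DNA. At the start of S phase, Cdc45, the GINS complex and Mcm10 turn the ring into an active helicase, and polymerases held by the PCNA clamp copy the strands. Most of these genes are transcribed by E2F factors once the retinoblastoma protein has been phosphorylated by cyclin-dependent kinases. In the adult nerve SCs are quiescent, and after nerve crush they lose their myelin and re-enter the cell cycle, as do cells of other types in the injured nerve.

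Library totals ranged from 8200458 to 13581775 counts. Rptor, the targeted gene, was below every control library in each RaptorKO library of the same side, at 23.2 to 28.6 against 35.0 to 48.6 counts per 1000000 (CPM) in injured and 22.1 to 28.0 against 43.7 to 52.5 CPM in contralateral nerves. Both libraries of control replicate 3 held 14462 and 15017 counts of the X-linked Xist, against at most 17 in the other 11. They held 2 and 1 counts of the Y-linked Ddx3y, against at least 486 in every other library. By these transcripts control replicate 3 was female and all RaptorKO libraries were male. Sex was thus not balanced between genotypes for any member, the X-linked Pola1 included. Replicates are separate nerves by label. The crush was unilateral, the contralateral nerves are described as those corresponding to the injured ones, and the titles number both alike, so an equal number within a genotype may mark 1 mouse, which is not stated outright. Values below are CPM scaled with edgeR's TMM factors, and differences are log2 fold changes from edgeR's quasi-likelihood test, whose p-values were adjusted by Benjamini-Hochberg across the tested genes. A gene was tested when 2 or more libraries of a comparison held at least 50 counts. A call needed an adjusted p below 0.05 and a change of more than 1.2-fold.

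The first comparison was between injured and contralateral nerves within each genotype. In controls 39 of 40 tested members rose after crush, where 32.4% of all tested genes rose. The median log2 fold change was 2.73 over the members and 0.0 over all 12430 tested genes. In RaptorKO nerves 39 of 40 also rose, against 30.5% of all tested genes, with a median of 2.53 over the members and 0.03 over all 12515 genes. The exception was the same gene in both genotypes, Gins4. Orc1, the largest subunit of the origin recognition complex, was not tested. The count minimum could be met by injured libraries alone, and in the comparison of contralateral nerves only 25 of 41 members met it. For genes that met it only through injured libraries, a rise was favoured by this rule, among members and all tested genes alike.

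Rrm2, the small subunit of ribonucleotide reductase, showed the largest rise of the tested members in both genotypes. It had 9, 4 and 2 counts in control contralateral nerves and 1504, 1416 and 1243 counts in control injured nerves. RaptorKO contralateral nerves had 0, 14, 5 and 21 counts, and RaptorKO injured nerves 982, 1146 and 848. All injured libraries lay far above all contralateral libraries, with log2 fold changes of 8.12 ± 0.22 (SE) in controls and 6.39 ± 0.47 in RaptorKOs. The contralateral level rested on at most 21 counts per library, so the size of this rise is less certain than its direction.

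Tk1, thymidine kinase of the salvage route, went from 2 to 5 counts to 576 to 636 counts in controls and from 2 to 6 to 337 to 502 counts in RaptorKOs. The log2 fold changes were 7.38 ± 0.23 and 6.36 ± 0.29. Uhrf1, which carries maintenance DNA methylation to newly copied strands, rose by 6.59 ± 0.17 and 4.97 ± 0.27, and E2f8, an atypical E2F that represses E2F targets, by 5.97 ± 0.26 and 4.97 ± 0.4. Rrm2, Tk1, Uhrf1 and E2f8 stood at the top of the plot of changes after crush in controls, and all were nearly silent in the contralateral nerve. A low start did not always go with the largest rises. Gins1, at 0.81 CPM in control contralateral nerves, was below Uhrf1 (0.945 CPM) and rose by 3.42 in controls.

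The licensing genes rose over a wide range. Cdt1, the MCM loader, rose by 4.25 ± 0.29 in controls and 3.23 ± 0.18 in RaptorKOs, and Cdc6, its partner, by 3.46 ± 0.32 and 3.32 ± 0.3. The 6 genes of the MCM2-7 ring rose by 1.42 to 3.95 in controls and by 1.37 to 3.53 in RaptorKOs, with Mcm4 the lowest in both. Orc6 rose by 1.41 ± 0.2 and 1.2 ± 0.17. Orc1 had 26 to 45 counts in the 6 injured libraries and 0 to 4 counts in the 7 contralateral ones, without overlap.

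At the fork the rises were smaller. Over the 12 clamp, polymerase and fork genes the median log2 fold change was 1.77 in controls and 1.47 in RaptorKOs, from Rfc2, a clamp loader subunit (1.15 and 0.95), to Pole, the catalytic subunit of the leading-strand polymerase (2.8 and 2.67). Pcna, the clamp itself, had the highest level per length of all members in each of the 4 groups. It stood at 91.4 ± 0.931 CPM per kb (SD, n = 3) in control injured and at 26.9 ± 1.97 CPM per kb in control contralateral nerves, so its transcript was well detected before injury. Over the 5 E2F and cyclin E genes the medians were 4.65 and 4.37. E2f1, an activator of this program, rose by 4.65 ± 0.28 and 4.37 ± 0.15.

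Gins4, also called SLD5, departed from the other GINS genes. It had 32.8, 32.0 and 27.3 CPM in control contralateral and 31.8, 28.5 and 32.5 CPM in control injured nerves, and these ranges overlapped. RaptorKO values were 28.1, 28.9, 28.0 and 30.5 CPM in contralateral and 27.1, 30.1 and 24.4 CPM in injured nerves. The log2 fold changes were -0.02 (95% interval -0.3 to 0.27) in controls and -0.09 (-0.36 to 0.18) in RaptorKOs. Gins1, Gins2 and Gins3 rose by 3.42, 2.28 and 1.44 in controls and by 2.8, 1.89 and 1.49 in RaptorKOs. The GINS complex holds 1 copy of each of these subunits, and in the control contralateral nerve Gins4 was second of all members by level per length (22.8 ± 2.19 CPM per kb).

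**Figure D1:**
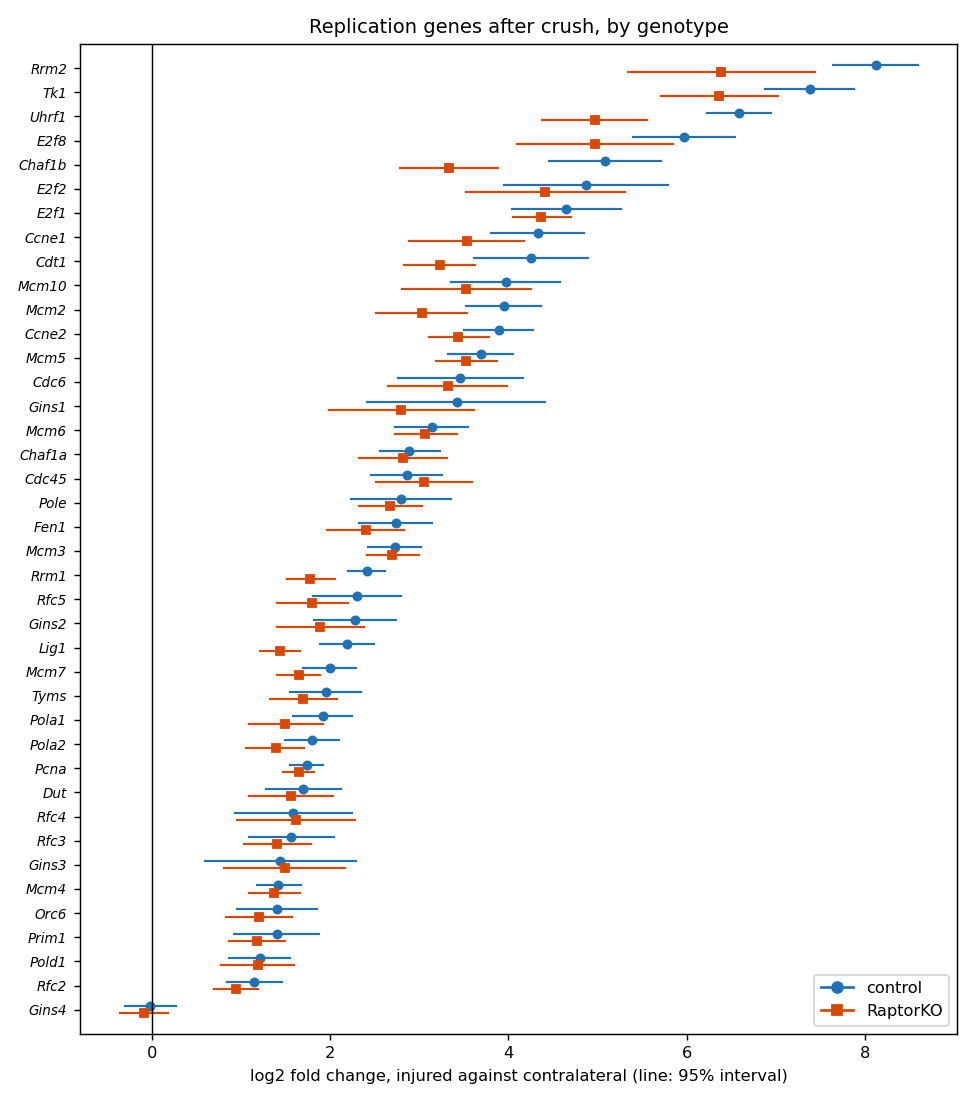
Log2 fold change of the 40 tested members between injured and contralateral nerves in control (circles) and RaptorKO mice (squares), with 95% intervals as lines, ordered by the control value. All members but Gins4 lie above 0 in both genotypes, from Rfc2 (1.15 and 0.95) to Rrm2 (8.12 and 6.39).

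Many other genes of the same processes also rose. Of 45 other replication genes 37 rose in controls and 36 in RaptorKOs, with medians of 1.16 and 1.07. Clspn, the checkpoint adaptor claspin, rose by 6.96 ± 0.3 and 5.06 ± 0.36. Of 21 checkpoint and recombination genes 16 and 14 rose, and of 16 other E2F, DP and pocket protein genes 9 and 10. Of the other nucleotide supply genes 7 of 13 tested rose in controls and 8 of 14 tested in RaptorKOs, and 2 fell in each genotype. Of 69 histone genes, most of whose transcripts lack a poly(A) tail, 8 were tested. Of these, 4 rose and 2 fell in controls, whereas 1 rose and 3 fell in RaptorKOs, with medians of -0.01 and -0.35.

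The promoters of the members were then searched for motifs of the factors that act on cell cycle genes. RefSeq promoter windows of GRCm38.p6, from 250 bases before to 50 after a start site, were found for 34 of the 41 members (40 windows). The 8-letter forms of the E2F site were searched on both strands, TTTGGCGC, TTTGCCGC, TTTCGCGC and TTTCCCGC. At least 1 of them was found in 35.0% of member windows (14 of 40) and in 2.26% of all 32851 windows. CCAAT, the site of NF-Y, was in 57.5% against 37.41%. TTTGAA, the cell cycle homology region (CHR) of genes expressed in G2 and mitosis, was in 15.0% against 17.89%. On the windows of 18 of 20 mitosis genes named below these shares were 5.56% for E2F, 77.78% for CCAAT and 72.22% for CHR. With only the 250 bases before the start site, the CHR share of the mitosis windows was 38.89%, so it depended on the window. A match is only a match of letters and does not show that a factor binds.

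**Figure D2:**
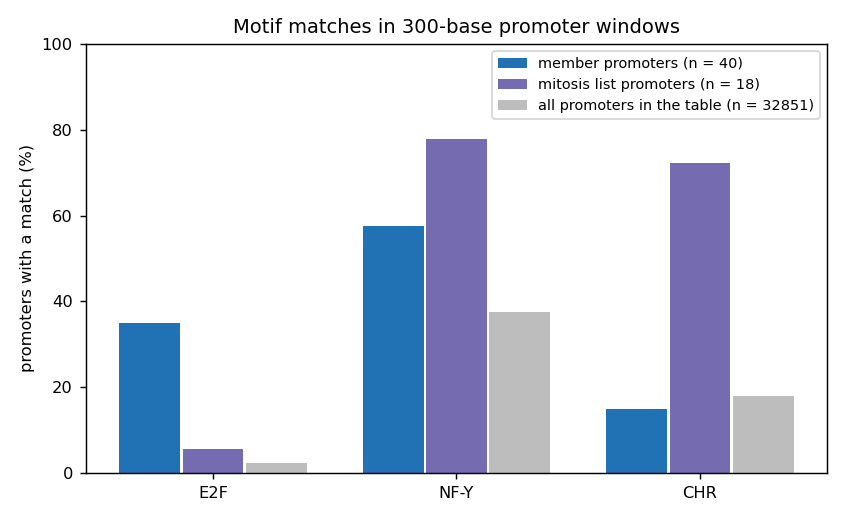
Share of 300-base RefSeq promoter windows (percent, linear axis from 0) with at least 1 match to the E2F, NF-Y (CCAAT) or CHR (TTTGAA) letters, for the members, the mitosis genes and all windows of the table. E2F letters are found in 35.0% of member windows and 5.56% of mitosis windows, and CHR letters in 15.0% and 72.22%.

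The 160 bases before the start site are printed below, on the strand of the gene from 5′ to 3′, for 4 members with an E2F match there. Capitals mark matches to the E2F, CCAAT and TTTGAA letters on either strand, so that ATTGG is CCAAT on the other strand and TTCAAA is TTTGAA. In Mcm5 and Mcm6 a pair of E2F matches on opposite strands overlap by 4 bases, and Mcm6 holds another nearer the start.
Mcm5 (chr8:75109349-75109508, plus strand): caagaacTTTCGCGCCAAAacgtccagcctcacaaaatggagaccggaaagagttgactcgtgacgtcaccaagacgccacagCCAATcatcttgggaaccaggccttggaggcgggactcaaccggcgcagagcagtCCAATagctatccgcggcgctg
Mcm6 (chr1:128359706-128359865, minus strand): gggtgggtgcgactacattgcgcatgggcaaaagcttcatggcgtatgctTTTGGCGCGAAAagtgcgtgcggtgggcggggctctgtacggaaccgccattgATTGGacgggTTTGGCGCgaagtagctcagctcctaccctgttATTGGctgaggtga
Cdc6 (chr11:98907991-98908150, plus strand): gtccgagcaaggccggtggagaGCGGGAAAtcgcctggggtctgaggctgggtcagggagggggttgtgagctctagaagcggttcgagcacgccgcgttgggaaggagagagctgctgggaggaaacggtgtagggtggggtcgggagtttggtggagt
Pola1 (chrX:93632156-93632315, minus strand): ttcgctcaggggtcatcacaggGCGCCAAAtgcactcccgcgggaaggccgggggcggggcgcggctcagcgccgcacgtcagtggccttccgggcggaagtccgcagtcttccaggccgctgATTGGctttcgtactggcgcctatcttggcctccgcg

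The same stretch is shown for the 4 members that were lower in RaptorKO injured nerves (below). No E2F form was found in their windows, whereas CCAAT was found before Rrm1, Rrm2 and E2f8 and TTTGAA before E2f8. Of the 34 members with windows only 14 held an E2F form, and Mcm2, Tyms and E2f1, not called lower, also held none. The absence of these letters says nothing of E2F binding.
Rrm1 (chr7:102441535-102441694, plus strand): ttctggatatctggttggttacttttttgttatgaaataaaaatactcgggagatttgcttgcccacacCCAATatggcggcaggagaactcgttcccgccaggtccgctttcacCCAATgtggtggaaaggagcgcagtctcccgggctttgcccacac
Rrm2 (chr12:24708094-24708253, plus strand): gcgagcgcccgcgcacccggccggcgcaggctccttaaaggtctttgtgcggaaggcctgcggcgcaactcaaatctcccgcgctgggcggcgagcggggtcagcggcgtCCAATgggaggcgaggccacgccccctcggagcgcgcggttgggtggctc
Tk1 (chr11:117826015-117826174, minus strand): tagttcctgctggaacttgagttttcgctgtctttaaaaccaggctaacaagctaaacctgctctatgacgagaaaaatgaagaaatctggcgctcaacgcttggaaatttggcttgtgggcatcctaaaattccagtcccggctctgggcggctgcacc
E2f8 (chr7:48881597-48881756, minus strand): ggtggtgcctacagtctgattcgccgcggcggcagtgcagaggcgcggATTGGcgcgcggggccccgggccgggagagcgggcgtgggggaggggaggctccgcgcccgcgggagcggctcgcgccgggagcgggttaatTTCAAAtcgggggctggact

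The second comparison asked how loss of Raptor changed these genes in the injured nerve. Of 40 tested members 4 were lower in RaptorKO than in control injured nerves, against a background of 4.44% of all tested genes. No member was higher, against 4.09% of all 12040 tested genes, and DESeq2 likewise called none higher. An unadjusted p below 0.05 was reached by 9 of 40 members and by 2594 of all 12040 tested genes, a like share. The lower members were 3 of the 5 nucleotide supply genes, Rrm1, Rrm2 and Tk1, and the repressor E2f8. The median log2 fold change was -0.07 over the members and 0.0 over all tested genes.

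Rrm1, the large subunit of ribonucleotide reductase, had 185, 168 and 175 CPM in control injured and 130, 124 and 123 CPM in RaptorKO injured nerves. The RaptorKO values were all below the lowest control value. The log2 fold change was -0.47 ± 0.096 (SE, adjusted p = 0.0124, edgeR's quasi-likelihood test). Under 13 alternatives the adjusted p stayed between 0.000895 and 0.0474.

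Rrm2 had 137, 130 and 122 CPM in the control libraries against 87.2, 90.1 and 77.6 CPM in the RaptorKO libraries, again without overlap. The log2 fold change was -0.59 ± 0.1 (adjusted p = 0.00606, edgeR). Rrm1 and Rrm2 encode the subunits of the enzyme that makes deoxynucleotides from ribonucleotides, and neither overlaps another annotated gene. The call of Rrm2 was lost when all 13 libraries shared 1 fit (adjusted p = 0.219, range 9.57e-05 to 0.219 over 13 alternatives).

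Tk1 had 52.6, 57.8 and 62.3 CPM in the control libraries against 43.2, 39.5 and 30.8 CPM in the RaptorKO libraries. The groups did not overlap, and the log2 fold change was -0.59 ± 0.14 (adjusted p = 0.0285, edgeR). E2f8 had 37.4, 41.7 and 48.1 CPM in the control libraries against 30.2, 25.4 and 27.0 CPM in the RaptorKO libraries, also without overlap, and its log2 fold change was -0.61 ± 0.14 (adjusted p = 0.0227, edgeR). Under the 13 alternatives the log2 fold change stayed between -0.7 and -0.46 for Tk1 and between -0.7 and -0.51 for E2f8, but the calls were lost without some libraries. Without control injured 2 the adjusted p was 0.0947 for Tk1 and 0.0742 for E2f8, without control injured 3 it was 0.0993 and 0.0873, and without RaptorKO injured 3 that of Tk1 was 0.0589. Without control injured 2 or 3 the called members were Rrm1 and Rrm2, 2 in number. Tk1 overlaps Afmid and E2f8 overlaps Gm2788 on the other strand, and the sources do not tell if counting used the strand.

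**Figure D3:**
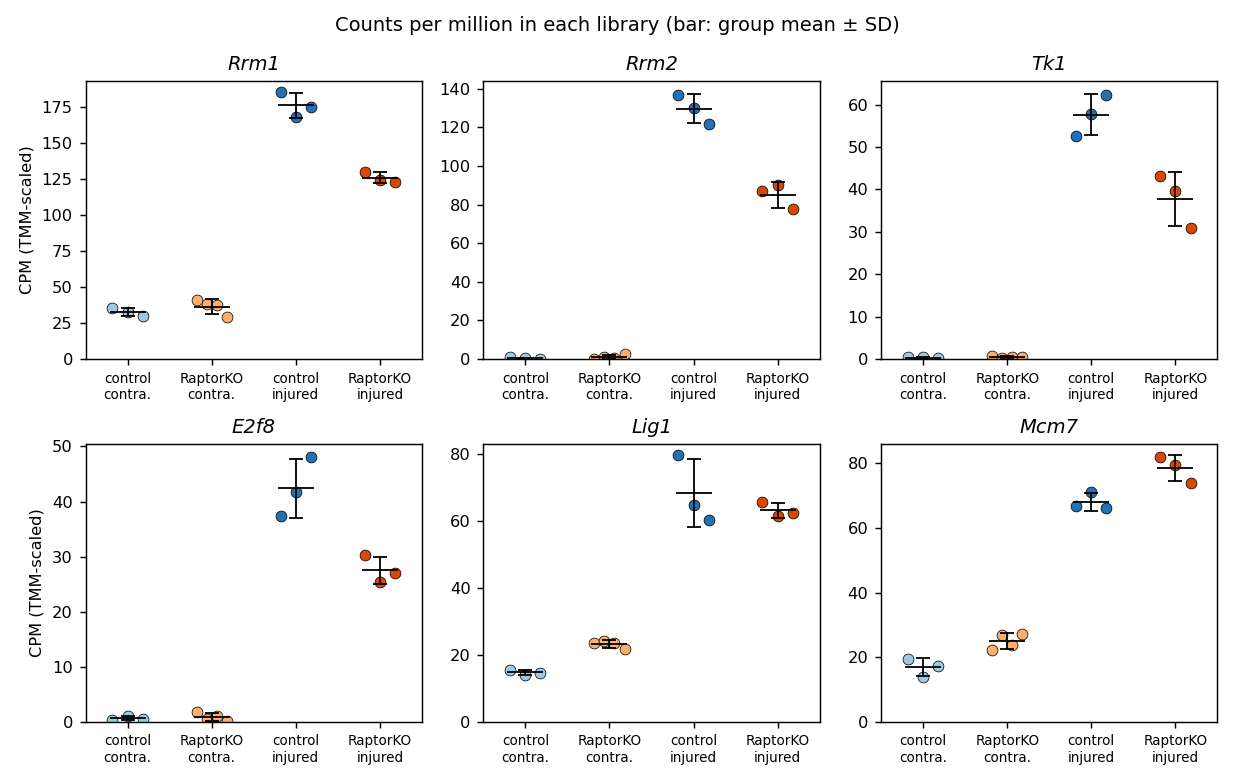
CPM (linear axis from 0) of 6 members in each library of the 4 groups, with bars for the group mean ± SD (n = 3, or 4 for RaptorKO contralateral). Rrm1, Rrm2, Tk1 and E2f8 separate the genotypes in injured nerves, with Rrm1 at 168 to 185 CPM in controls and 123 to 130 CPM in RaptorKOs, and Lig1 and Mcm7 separate them in contralateral nerves.

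The other nucleotide supply genes did not pass the test. Tyms, thymidylate synthase, read -0.09 (95% interval -0.39 to 0.22), and Dut, the dUTPase that keeps uracil out of DNA, read 0.0 (-0.4 to 0.4). Dut had 20, 20.1 and 24.9 CPM in control and 20.3, 26.0 and 17.9 CPM in RaptorKO injured nerves, which overlapped.

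None of the 9 tested licensing genes was called by edgeR or DESeq2, and 1 had an unadjusted p below 0.05. Mcm2, Mcm3, Mcm4, Mcm5, Mcm6 and Mcm7 read 0.02, 0.05, -0.04, 0.03, 0.06 and 0.22 on the log2 scale, and over these 6 the 95% intervals ran from -0.28 at the lowest to 0.45 at the highest. Mcm5 had 68.5, 60.6 and 61.3 CPM in the control libraries against 72.4, 59.7 and 60.7 CPM in the RaptorKO libraries, with nearly identical ranges. Mcm7 had 66.9, 71.1 and 66.1 CPM in the control libraries against 82.1, 79.4 and 74.0 CPM in the RaptorKO libraries, so every RaptorKO library was higher (adjusted p = 0.237, edgeR).

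Cdt1 had the smallest p of the licensing genes. It had 23.8, 25.3 and 21.3 CPM in the control libraries against 35.9, 28.8 and 28.4 CPM in the RaptorKO libraries, all higher, with a log2 fold change of 0.41 ± 0.15 that did not pass the adjustment (adjusted p = 0.12, edgeR). Cdc6 read 0.09 and Orc6 -0.1. Orc1 stayed below the count minimum, with 45, 35 and 26 counts in controls and 35, 45 and 41 counts in RaptorKOs, which overlapped.

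The 6 helicase activation genes all read below 0 and none was called by edgeR or DESeq2, with an unadjusted p below 0.05 for 2. Cdc45, the helicase subunit that joins the MCM ring, had 32.7, 28.9 and 35.3 CPM in the control libraries against 27.5, 25.2 and 22.7 CPM in the RaptorKO libraries, without overlap (log2 fold change -0.35 ± 0.14, adjusted p = 0.186, edgeR). Gins1 had 8.22, 10.1 and 8.32 CPM against 6.93, 6.21 and 4.85 CPM, also without overlap, at -0.55 ± 0.25 (adjusted p = 0.226, edgeR). Its interval reached from -1.09 to -0.01 at its 53 to 110 counts per library, and so included a 2-fold decrease. Gins3, with 5.75, 7.43 and 12.9 CPM in the control libraries against 8.71, 7.62 and 6.13 CPM in the RaptorKO libraries, overlapped and read -0.2. Mcm10, Gins2 and Gins4 read -0.24, -0.12 and -0.17.

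Of the 12 clamp, polymerase and fork genes none was called by edgeR or DESeq2, 1 had an unadjusted p below 0.05, and they ranged from -0.38 to 0.33. Fen1, the nuclease that trims Okazaki fragments, had 26.9, 28.4 and 32.2 CPM in the control libraries against 25.9, 20.5 and 20.4 CPM in the RaptorKO libraries, without overlap (-0.38 ± 0.15, adjusted p = 0.181, edgeR). Pold1, the catalytic subunit of the lagging-strand polymerase, had 24.2, 30.2 and 25.9 CPM against 41, 30.9 and 28.3 CPM, with overlap (0.33 ± 0.17, adjusted p = 0.283, edgeR). Prim1, the catalytic subunit of primase, had 24.6, 18.0 and 30.4 CPM against 25.3, 22.7 and 22.5 CPM, within the control range. Pcna, Lig1, Pola1, Pola2 and Pole read -0.13, -0.1, -0.28, -0.23 and 0.06, and Rfc2, Rfc3, Rfc4 and Rfc5 read 0.04, 0.09, -0.06 and -0.25.

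The 3 genes acting behind the fork were not called. Chaf1a and Chaf1b, subunits of the histone chaperone CAF-1, had 47.4, 47.1 and 41.4 CPM against 51.4, 47.7 and 46.1 CPM and 22.1, 19.9 and 27.2 CPM against 19.5, 25.0 and 17.7 CPM (0.11 and -0.14). Uhrf1 had 91.7, 97.6 and 95.1 CPM in the control libraries against 118, 102 and 80.4 CPM in the RaptorKO libraries (0.1), and in all 3 genes the groups overlapped. Ccne2, cyclin E2, had 45.5, 44.6 and 51.1 CPM in the control libraries against 38.0, 39.3 and 35.6 CPM in the RaptorKO libraries, all lower, at -0.31 ± 0.12 (adjusted p = 0.161, edgeR). E2f2 had 7.22, 10.9 and 12.1 CPM against 10.5, 11.4 and 7.41 CPM, which overlapped (-0.03), and E2f1 and Ccne1 read 0.03 and -0.03.

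Counted without a model, 10 of 40 tested members were lower in every RaptorKO than in every control injured library, against 14.6% of all tested genes. Besides the 4 called these were Cdc45, Gins1, Gins2, Pcna, Fen1 and Ccne2. The opposite held for Cdt1 and Mcm7, 2 of 40, against 11.7% of all tested genes. Of the 36 members that were tested and not called, the 95% interval lay within a 2-fold change in either direction for 35, all but Gins1, and within a 1.5-fold change for 25.

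**Figure D4:**
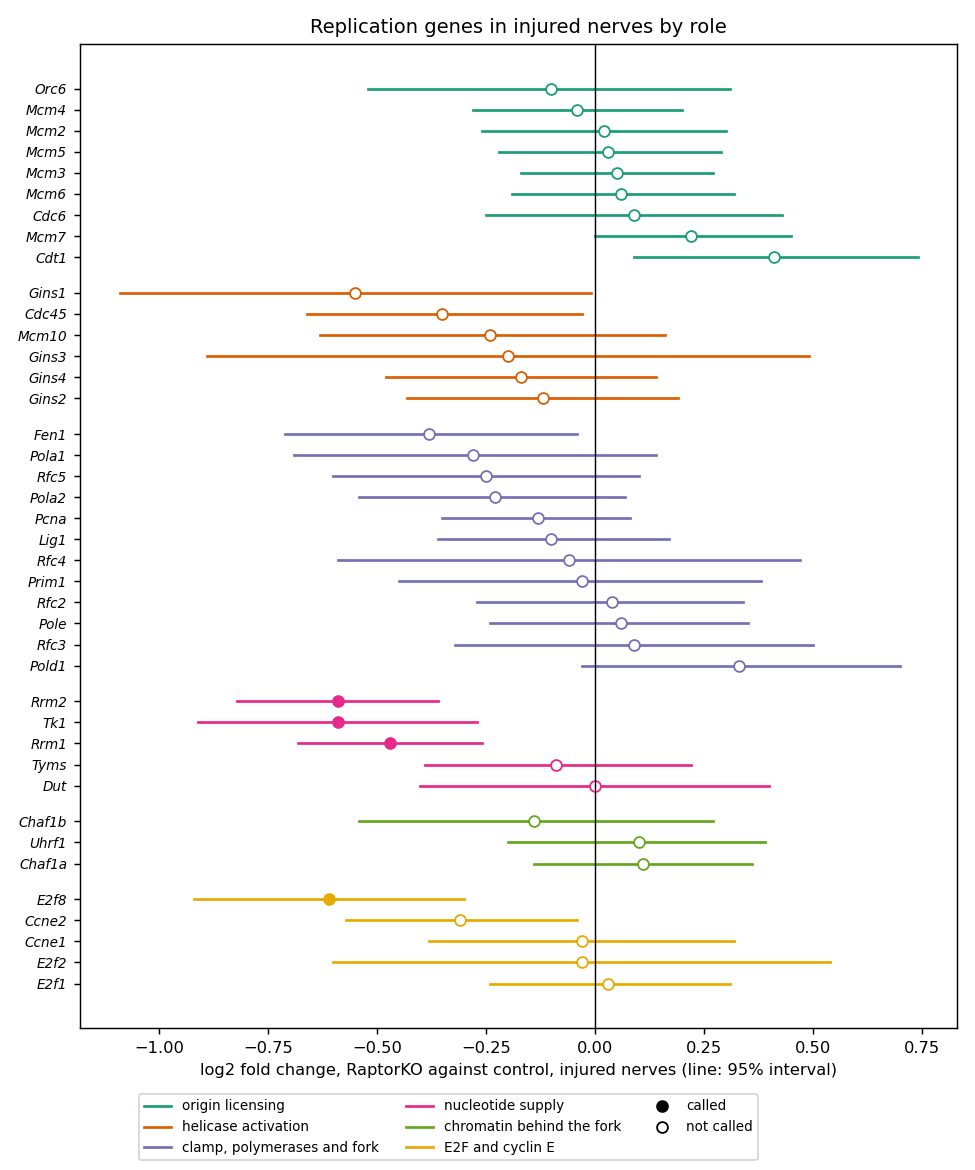
Log2 fold change between RaptorKO and control injured nerves for the 40 tested members by role, with 95% intervals as lines, filled where called. The 6 MCM2-7 genes lie between -0.04 and 0.22, and Rrm1, Rrm2, Tk1 and E2f8 between -0.47 and -0.61.

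A list of 20 mitosis genes was set beside the members. All 20 were lower in RaptorKO injured nerves, with a median of -0.87 and a range of -1.12 to -0.69, which does not overlap the range of the members (-0.61 to 0.41). Ccnb1, cyclin B1 of the mitotic kinase, had 66.8 ± 2.09 CPM in controls and 30.3 ± 1.53 CPM in RaptorKOs (SD, n = 3 each). The difference between the lists was not tested, and both lists were chosen with earlier results of these data known. Summed over the members, levels were 2016, 1973 and 1990 CPM in control and 1937, 1810 and 1701 CPM in RaptorKO injured nerves. Summed over the mitosis genes they were 2475, 2302 and 2354 CPM against 1368, 1268 and 1225 CPM. The mitosis sum per member sum was thus 1.17 to 1.23 in controls and 0.7 to 0.72 in RaptorKOs. Within the members, the nucleotide supply sum was 400.2 to 420.8 CPM against 270.8 to 303.4 CPM. In control injured nerves Rrm1, Rrm2 and Tk1 averaged 176, 130 and 57.6 CPM of a mean sum of 409 CPM. This sum thus mostly repeats the calls of these genes and does not describe Tyms or Dut, which were not called. The licensing sum was 480.0 to 524.2 CPM against 497.8 to 562.4 CPM and overlapped.

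**Figure D5:**
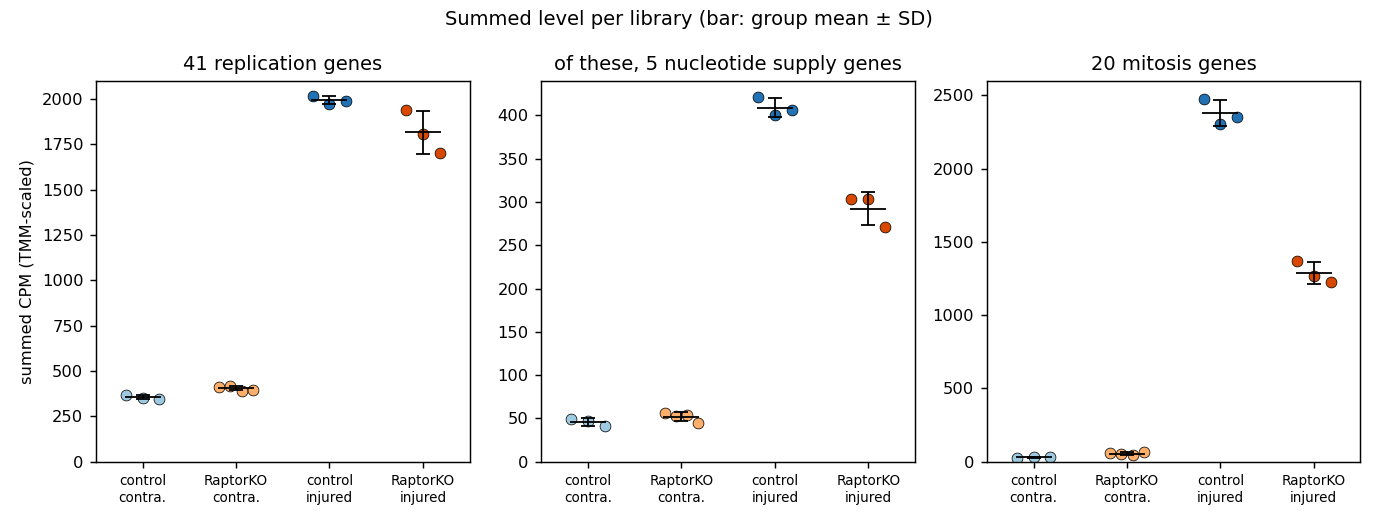
Summed CPM (linear axis from 0) of the 41 members, of the 5 nucleotide supply genes among them and of 20 mitosis genes in each library, with bars for the group mean ± SD. In injured nerves the mitosis sum is 2302 to 2475 CPM in controls and 1225 to 1368 CPM in RaptorKOs, and the member sum 1973 to 2016 and 1701 to 1937 CPM.

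In the other lists of these processes few genes were called in the injured nerve. Of 45 other replication genes 2 were lower, with a median of -0.08. These were Dbf4, the regulatory subunit of the kinase that fires origins (-0.81 ± 0.14, adjusted p = 0.00552, edgeR), and Asf1b, a histone chaperone (-0.63 ± 0.15, adjusted p = 0.0236, edgeR). Rpa2 and Tipin read 0.0. Of 21 checkpoint and recombination genes 3 were lower, Fanci (-0.73) and Fancd2 (-0.82) among them, with a median of -0.23, and Atr and Rad9a read 0.06 and -0.04. Of 16 other E2F, DP and pocket protein genes only cyclin A2, Ccna2, was lower (-0.9 ± 0.13, adjusted p = 0.00231, edgeR), while E2f3 and Cdc25a read -0.01 and 0.01. Of 14 other nucleotide supply genes Dctpp1, a pyrophosphatase of deoxycytidine nucleotides, was higher (0.74 ± 0.21, adjusted p = 0.0477, edgeR), and Rrm2b and Dtymk read 0.07 and 0.05. Of 8 tested histone genes Hist1h1c was lower (-0.99), and 3 of the 8, H1f0, H3f3a and H3f3b, are made outside S phase as well.

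Markers of the cell types in the nerve also differed between the injured groups. Of 11 tested SC markers 4 were lower in RaptorKOs, S100b and Ncam1 among them, and the summed level of the list was 5380 to 5820 CPM in controls and 3780 to 4690 CPM in RaptorKOs. None of 12 macrophage markers was called, and their sum was 3316 to 4121 CPM in the control libraries against 4565, 2360 and 4423 CPM in the RaptorKO libraries. RaptorKO injured 2 was the lowest of these, and without it 4 members were called as well. Of 6 tested mast cell markers 5 were higher (sum 8.71 to 53.1 against 108 to 201 CPM), of 8 endothelial markers 6 (265 to 423 against 497 to 754 CPM), of 6 pericyte and smooth muscle markers 5 (449 to 539 against 868 to 1160 CPM), of 7 fibroblast markers 2 (6380 to 9250 against 8170 to 12900 CPM), and of 4 perineurial markers 1 (609 to 673 against 607 to 677 CPM). Neutrophil and T and NK cell markers summed to at most 48.2 and 24.5 CPM, with 1 tested in each list and none called. Skeletal muscle markers summed to at most 1.83 CPM, with 3 of 6 at 0 in each injured group. The part of these shifts in the member results was not tested.

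The third comparison was between genotypes in the contralateral nerve, where many members were near the limit of detection. Only 25 of 41 were tested. Of these 2 were higher in RaptorKOs, Lig1 and Mcm7, where 4.49% of all tested genes were higher, and 0 were lower, where 5.68% were. An unadjusted p below 0.05 was reached by 4 of 25 members and by 2955 of all 11878 tested genes, and DESeq2 called 3 members. The median log2 fold change was 0.21 over the tested members and 0.01 over all 11878 tested genes.

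Lig1, the ligase that seals Okazaki fragments, had 15.6, 13.9 and 14.7 CPM in the control libraries against 23.6, 24.0, 23.6 and 21.6 CPM in the RaptorKO libraries. The groups were well apart, and the log2 fold change was 0.68 ± 0.12 (adjusted p = 0.00503, edgeR), with a range of 0.000271 to 0.034 over 14 alternatives. Mcm7 had 19.3, 13.8 and 17.3 CPM in the control libraries against 22.1, 27.0, 23.7 and 27.1 CPM in the RaptorKO libraries, all higher. Its log2 fold change was 0.59 ± 0.15 (adjusted p = 0.0315, edgeR). The call of Mcm7 was lost without control contralateral 2 or 3 (adjusted p = 0.132 and 0.0787) and without RaptorKO contralateral 2 or 4 (0.0654 and 0.0508). Lig1 overlaps Zswim9 on the other strand, and Mcm7 overlaps Ap4m1 and Cops6 there and hosts Mir25 and Mir93 on its own.

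Of the 25 tested members, 3 were higher in every RaptorKO than in every control contralateral library (Lig1, Mcm7 and Rfc2), where 9.93% of all tested genes were. The same separation was seen for 3 of the members outside these 25, which had too few counts to be tested. The share over all untested genes was not counted, so no background stands beside this number. Uhrf1 had 12, 13 and 7 counts in controls and 34, 59, 29 and 11 counts in RaptorKOs, Chaf1b 10, 6 and 6 against 25, 22, 25 and 11 counts, and Cdt1 20, 8 and 12 against 29, 39, 43 and 23 counts, the CPM of which did not overlap. With a minimum of 10 counts in 2 libraries, 38 members were tested and the calls were again Lig1 and Mcm7. Uhrf1, Chaf1b and Cdt1 then read 1.71, 1.62 and 1.44 with adjusted p = 0.0573, 0.0816 and 0.0679 (edgeR). With no count minimum Uhrf1 was called besides Lig1 and Mcm7. Fitted with all 13 libraries, 6 members were called, these 3 with Lig1, Mcm7 and Mcm2.

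Mcm2 had 4.55, 5.06 and 2.83 CPM in the control libraries against 8.11, 11.3, 4.77 and 7.73 CPM in the RaptorKO libraries, which overlapped, and its log2 fold change was 0.96 ± 0.33 (adjusted p = 0.0968, edgeR). Pcna had 62.2, 70.0 and 61.6 CPM in the control libraries against 63.9, 61.6, 63.4 and 63.4 CPM in the RaptorKO libraries, and read -0.02 (95% interval -0.2 to 0.17). Summed over all members the level was 348.5 to 367.0 CPM in controls and 392.7 to 416.7 CPM in RaptorKOs. Macrophage markers were higher in the same nerves, 6 of 10 tested, with sums of 322 to 389 CPM in controls and 463 to 544 CPM in RaptorKOs. So were 3 of 8 fibroblast markers (sums of 6490 to 7420 against 9510 to 12600 CPM) and 2 of 5 tested mast cell markers (13.7 to 61.1 against 83.6 to 146 CPM), and none of these sums overlapped. Of 6 pericyte and smooth muscle markers 1 was higher (634 to 698 against 572 to 768 CPM), and of 8 endothelial markers none was called (510 to 540 against 510 to 607 CPM). Of 3 tested mitosis genes Mki67, the proliferation antigen, was higher (1.62 ± 0.26, adjusted p = 0.00344, edgeR). Of 11 tested SC markers 4 were lower and 1 higher, and their sum was 39300 to 44000 CPM in controls and 31800 to 40200 CPM in RaptorKOs. The part of these shifts in the member results was not tested.

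The last comparison asked whether the change after crush differed between genotypes, as an interaction term over all 13 libraries. Of 40 tested members 4 were called with a smaller rise in RaptorKOs, against 1.41% of 12851 tested genes called in that direction, and 0 with a larger one, against 1.07%. An unadjusted p below 0.05 was reached by 9 of 40 members and by 1827 of all 12851 genes. Values were below 0 for 37 of 40 members and for 6587 of all tested genes. The median was -0.33 over the members and -0.01 over all tested genes. These values share their libraries with the comparisons above and are not independent of them.

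The 4 members were of 2 kinds. Rrm1 rose by 2.41 ± 0.095 in controls and 1.78 ± 0.12 in RaptorKOs (interaction -0.65 ± 0.15, adjusted p = 0.0381, edgeR), and its genotypes differed in the injured nerve. For Lig1 (2.19 ± 0.14 and 1.44 ± 0.1, interaction -0.77 ± 0.16, adjusted p = 0.0206, edgeR) the genotypes differed in the contralateral nerve, while its injured levels overlapped at 79.8, 64.8 and 60.3 CPM in the control libraries against 65.7, 61.5 and 62.4 CPM in the RaptorKO libraries. Chaf1b (interaction -1.77 ± 0.39, adjusted p = 0.0294, edgeR) and Uhrf1 (-1.65 ± 0.4, adjusted p = 0.0419, edgeR) likewise overlapped in injured and not in contralateral nerves, where they had at most 59 counts. Rrm2, Tk1 and E2f8 read -1.74, -1.04 and -1.02, with SEs of 0.78, 0.51 and 0.59, and were not called. Without control contralateral 2 or 3 no member was called (edgeR), with Lig1 at an adjusted p of 0.065 and 0.0506. Without control injured 3, RaptorKO injured 3 or RaptorKO contralateral 1 the only call was Lig1, and without control injured 1 or 2, RaptorKO injured 1 or 2, or RaptorKO contralateral 2 there were 2 calls. Over 18 alternatives Rrm1 was called in 7, Uhrf1 in 8, Chaf1b in 11 and Lig1 in 16. Among the mitosis genes 11 of 20 were called with a negative value, against 1.41% of all tested genes. Below 0 were 19 of 20, with a median of -1.67. Only 3 of these 20 met the count minimum in contralateral nerves, and the rest met it through injured libraries. Ccnb1, for example, had 0.155 CPM in control contralateral nerves, so the size of these values is uncertain.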

How the data were processed

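The authors trimmed the reads with Trimmomatic, mapped them to GRCm38 and estimated reads per gene with RSEM 1.2.22, per the submitters' notes. They deposited these expected counts, which are shared out among matching genes and not normalized, for 40787 genes, of which 40550 were matched to GENCODE M21. The paper names a stranded kit, but the strand setting of the counting is not given in the sources used here. Counts were rounded to whole numbers and analysed in R 4.3.3 with edgeR 4.0.16 (TMM factors, quasi-likelihood test, Benjamini-Hochberg adjustment). The count minimum for testing was 50 in 2 libraries, and calls needed an adjusted p below 0.05 together with more than a 1.2-fold change. Groups came from the sample labels. Genotypes were compared within each side, sides within each genotype, and the interaction over all 13 libraries. The fits were tested on simulated data. Levels per length divide CPM by the merged exon length. DESeq2 1.42.0, the exact test of edgeR (used by the authors) and other settings were alternatives.

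The 41 members, the other lists and the tests were chosen with earlier results of these data known. Values per library are given for the 2 members of each role with the smallest p in the injured comparison and the 1 with the largest p or not tested, and every called member is named. Of each other list up to 3 called genes and 2 with the largest p are named, except for items not reported here. Values of Tk1, Lig1, Pcna, Mcm2, Mcm5 and Gins4, and those of other comparisons, were given besides this rule, as was Clspn, after they were seen. The library totals in counts limit precision for low members, and intervals are those of the fitted model at 95%.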

Additional observations from a re-analysis of the deposited data

Results flagged for a closer look

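Between genotypes 4 members differed in their change after crush by the interaction test of edgeR. The log2 differences (RaptorKO change minus control change) were -1.65 for Uhrf1, -1.77 for Chaf1b, -0.65 for Rrm1 and -0.77 for Lig1. The contralateral counts behind Uhrf1 (7 to 59 per library) and Chaf1b (6 to 25 per library) were low.

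In the RaptorKO contralateral group, the only group of 4 libraries, 1 library stood apart from the other 3 for 2 of 41 members. Cdt1 was highest in RaptorKO contralateral 3 at 4.1 CPM, where the others had 2.96 to 3.09 CPM. Mcm3 was highest in RaptorKO contralateral 2 at 13.2 CPM, where the others had 9.82 to 10.2 CPM. Chance flags about 1 in 20 such groups, and the groups of 3 libraries were not tested.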

How the results depend on the processing

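Members called lower in injured RaptorKO nerves numbered 4 and became 2 with all 13 libraries in 1 fit, where Rrm2 and E2f8 lost their calls (adjusted p = 0.219 and 0.193, edgeR). They numbered 2 to 4 when 1 library was left out. Members called higher in contralateral RaptorKO nerves numbered 2, 6 with all 13 libraries in 1 fit, and 1 to 3 when 1 library was left out. Of these 6, Uhrf1, Chaf1b and Cdt1 met the count minimum only through injured libraries. Mcm2 was the additional call under DESeq2 (adjusted p = 0.0384) and was 1 of 4 additional calls with all 13 libraries in edgeR (0.0305). Interaction calls numbered 4 in each of 5 other settings and 0 to 4 when 1 library was left out. The 39 members that rose after crush numbered 39 to 40 over all alternatives in each genotype, and no called member changed direction under any alternative. On the other lists, counts of lower genes in injured nerves were 0 to 2 for other replication genes, 0 to 4 for checkpoint genes and 15 to 20 for mitosis genes over 13 alternatives, and the call of Dctpp1 was lost in some.

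Deviations from the group means of libraries with equal replicate numbers correlated at r of -0.0495 to 0.0267 between genotypes in injured and 0.0724 to 0.301 in contralateral nerves, which come from different mice. Between the injured and contralateral nerves of 1 genotype, which may share a mouse, r was 0.0674, 0.129 and 0.305 in controls and -0.0239, 0.211 and 0.168 in RaptorKOs. For unequal numbers it was -0.225 to 0.136 in controls and -0.298 to 0.137 in RaptorKOs. Not every pair of equal number was above 0.1, and the main fits did not take the numbers as pairs. An equal number may still mark 1 mouse, a pairing that the main fits would then leave out. With the replicate number as a block, 3 members were lower in injured nerves, with Tk1 not called (adjusted p = 0.0594, edgeR), and 3 higher in contralateral nerves, with Mcm2 added (adjusted p = 0.0347, edgeR). The interaction had 4 calls and the change after crush 39 in each genotype, as without the block.

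Library totals in place of TMM moved the median member level in control contralateral nerves from 1.17 to 1.09 CPM per kb. A window of 250 bases before the start moved the E2F share of members to 22.5% and of all promoters to 1.86%. It moved the CHR share of mitosis windows from 72.22% to 38.89%, while that of members stayed at 15.0%. Depth limits Orc1, which was below the count minimum in each comparison, and the 16 members not tested in contralateral nerves.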
